A study of Mus musculus with 9 samples.

Results

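The genes described here encode the release machinery of the photoreceptor ribbon synapse: *Ctbp2*, *Bsn*, *Pclo*, *Cacna1f*, *Cacna2d4*, *Cabp4*, *Rims2*, *Unc13b*, *Slc17a7* and *Elfn1*. They were chosen by symbol, as 10 of the 25239 gene names in the retinal tables of *Rbpms*-CreERT2 knock-in mice, and all 10 were among the 15198 genes that averaged at least 1 TPM (transcripts per 10⁶, a level per length of transcript). Each filled a single row in every table, so no values were summed for them. Whole retinas were taken at P42 from C57BL/6J mice of 3 genotypes, with 3 libraries of bulk RNA-Seq for each and both retinas of 1 mouse in each library. Wild-type mice (+/+) were the controls, Cre/+ mice carried 1 allele of *Rbpms*-CreERT2, and Cre/Cre mice carried 2. In this allele a P2A-CreERT2 cassette follows the last codon of *Rbpms* in frame, so that CreERT2, a Cre recombinase activated by tamoxifen, is driven by the promoter of *Rbpms* itself, a marker of retinal ganglion cells. The sample labels name no tamoxifen and no floxed gene for any of the 9 libraries. The study asked whether the knock-in changes the transcriptome of the retina, and the account below takes that question to the synapse that carries the photoreceptor signal to bipolar and horizontal cells.

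Rods and cones release glutamate continuously in darkness and slow the release in light. The synaptic ribbon, a plate attached to the presynaptic membrane, holds vesicles near L-type calcium channels that stay open as long as the cell is depolarised. RIBEYE, the protein that builds the ribbon, comes from the *Ctbp2* gene, while Bassoon and Piccolo are large scaffold proteins of the active zone. Loss of the channel Cav1.4 or of its partners is a known cause of congenital stationary night blindness and of related cone and rod disorders. Ganglion cells, in which *Rbpms* is expressed, form no ribbon synapses of their own.

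None of the 10 genes passed the test across all genes in any comparison of the genotypes. In Cre/+ against +/+ retinas 0 of 10 were called at an adjusted p of at most 0.05 (limma, Benjamini-Hochberg), where 0.00658% of all genes tested were called. The count was 0 of 10 in Cre/Cre against +/+ retinas, with 0.00658% of all genes, and 0 of 10 in Cre/Cre against Cre/+ retinas, with 0.0132%. The test for any difference among the genotypes called 0 of 10 as well, against 0.0132% of all genes. At an unadjusted p under 0.05 the count was also 0 of 10 in each of the 3 contrasts, where 10.7%, 6.97% and 6.58% of all genes passed, and in the test of any difference, where 8.63% did. The closest to the adjusted limit were *Rims2* in Cre/+ against +/+ (limma adjusted p = 0.483) and *Cabp4* in Cre/Cre against +/+ (limma adjusted p = 0.729). The targeted gene *Rbpms*, measured in the same libraries, was at 43.2, 38.4 and 43.4 TPM in +/+, at 31.3, 32.2 and 33.1 TPM in Cre/+, and at 19.7, 19.1 and 24.2 TPM in Cre/Cre retinas. It was called in Cre/Cre against +/+ (log2 fold change -0.96, SE 0.10, limma adjusted p = 0.000581) and not in Cre/+ against +/+ (limma adjusted p = 0.355), although the 3 genotypes do not overlap. The 5 ganglion cell markers also did not overlap in their sum, at 1199.7 to 1227 TPM in +/+, 1138 to 1166 TPM in Cre/+ and 889.8 to 1061 TPM in Cre/Cre retinas, and their part in the value of *Rbpms* was not tested.

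The libraries held 27.0 to 31.0 × 10⁶ aligned reads, and they differed in ways other than genotype. The ribosomal transcript Rn45s took 9.21% of the TPM in Cre/Cre replicate 1 and 0.0827% to 0.336% in the other 8 libraries, and the median gene of that library stood at 0.917 of its geometric mean over the 9 libraries, against 0.985 to 1.03 in the others. Xist, the transcript of the inactive X chromosome, was at 2.08 to 3.16 TPM in Cre/+ replicate 3, Cre/Cre replicate 1 and Cre/Cre replicate 3, and at 516 to 585 TPM in the other 6. The Y-linked gene *Ddx3y* was at 54.8 to 75.0 TPM in the same 3 libraries and at 0 to 0.209 TPM in the other 6. By these transcripts the 3 libraries were male and the other 6, with every +/+ library among them, female. Sex was thus partly confounded with genotype. Lens crystallin and fibre genes summed to 902 TPM in Cre/Cre replicate 2 and to 10.7 to 201 TPM elsewhere. The 5 blood markers summed to 150.5 to 182 TPM in +/+, 92.5 to 105 TPM in Cre/+ and 185 to 300.5 TPM in Cre/Cre retinas, without overlap. All 5 rod markers, all 5 cone markers and all 5 bipolar markers were expressed and none was at 0. The rod markers summed to 44119 to 46620 TPM in +/+, to 42762 to 44568 TPM in Cre/+ and to 38325 to 44340 TPM in Cre/Cre retinas, the lowest sum being that of Cre/Cre replicate 1. In bulk tissue, fewer cells of a type and less RNA in each cell cannot be told apart.

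Levels of the 10 genes, which TPM expresses per length of transcript so that genes can be compared, spanned a wide range. The places of *Ctbp2*, *Rims2*, *Cacna2d4* and *Pclo* are less certain, because their coverage was below what their FPKM gives, as described below. *Slc17a7* had a mean of 1417 TPM over the 9 libraries and ranked 42 among the 15198 genes. *Cabp4* followed at 431 TPM, *Cacna2d4* at 315 TPM, *Cacna1f* at 283 TPM, *Ctbp2* at 216 TPM, *Unc13b* at 201 TPM and *Rims2* at 155 TPM. *Elfn1* at 74.4 TPM, *Pclo* at 66.1 TPM and *Bsn* at 41.2 TPM closed the order, and *Bsn* ranked 5558. Each gene was above the next in all 9 libraries except at 2 places. *Ctbp2* exceeded *Unc13b* in 8 of 9 libraries, with a ratio from 0.961 to 1.16, and *Elfn1* exceeded *Pclo* in 8 of 9, with a ratio from 0.967 to 1.27. These 2 pairs of neighbours were therefore not separated beyond the spread of the libraries. The step from *Slc17a7* to *Cabp4* was the widest, at 3.08-fold to 3.66-fold. Over the 9 libraries the coefficient of variation ran from 4.45% for *Slc17a7* to 11.2% for *Rims2*.

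**Figure D1:**
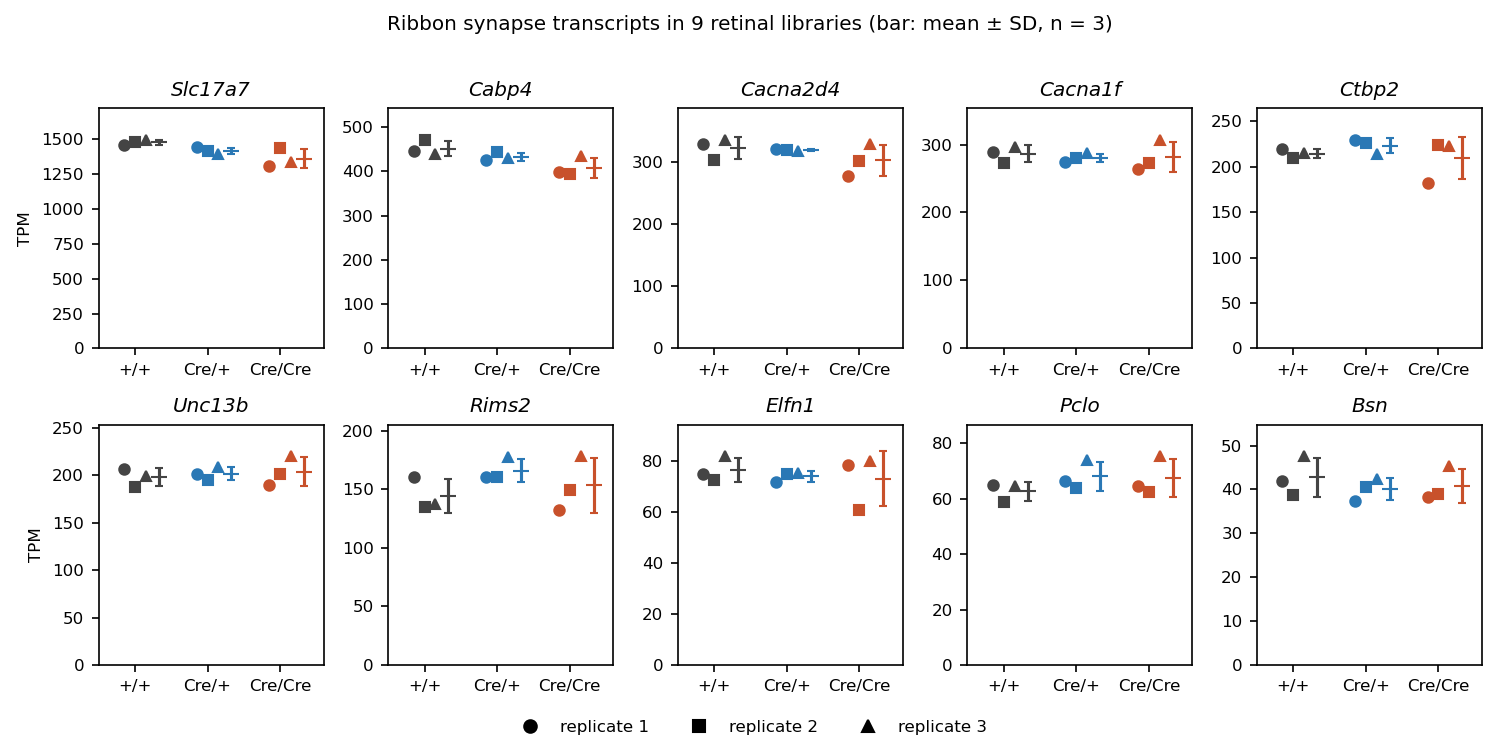
Level of each ribbon synapse gene in TPM (vertical axes, each starting at 0) in +/+, Cre/+ and Cre/Cre retinas, with 1 point for each library and the mean ± SD (n = 3) beside the points. The genotypes lie close together in every panel, and the Cre/Cre and +/+ points do not overlap for *Slc17a7* and *Cabp4*.

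The scaffold of the ribbon was represented by *Ctbp2*, *Bsn* and *Pclo*. The deposited tables place *Ctbp2* on the minus strand of mm10 at chr7:132987011-133123483, a span of 136.5 kb. GENCODE lists 12 protein-coding transcripts for it. The longest reading frame, of 988 codons, belongs to the transcript that starts inside the gene at position 133015248, as the RIBEYE form does, whereas a transcript of the repressor form CtBP2, with 445 codons, starts at 133123367. The TPM of *Ctbp2* joins these forms and does not separate them. The 250 bases ahead of the inner start site were taken from RefSeq (GRCm38.p6) and searched for TAATCC, the core that the photoreceptor factor CRX binds, on both strands. They held 1 match, on the opposite strand, 121 to 116 bases before the start. Of these 250 bases, 243 overlap an annotated exon of other *Ctbp2* transcripts, and the match lies in it. The 30 bases around it, chr7:133015351-133015380 on the minus strand, are shown because this start belongs to the ribbon's own protein, with the match in capitals (GGATTA, the reverse complement of TAATCC).
Ctbp2 inner start: taaggtttcagaGGATTAataatttaggtc

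Across all 32851 RefSeq windows of this length 6.3% held TAATCC, and 1 of the 8 windows matched to the ribbon synapse genes did. TGCTGA, part of the element bound by the MAF family that includes the rod factor NRL, was in 0 of the 8 windows and in 16.1% of all windows. The 8 windows belong to 7 of the 10 genes, *Ctbp2* with its inner start and another one, *Bsn*, *Pclo*, *Cacna1f*, *Unc13b*, *Slc17a7* and *Elfn1*. *Cacna2d4*, *Cabp4* and *Rims2* were not matched. A match of letters is a description of the sequence and says nothing of binding, and its absence says only that these letters are not in the window.

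*Ctbp2* was at 219, 209 and 216 TPM in +/+, at 229.8, 226 and 214 TPM in Cre/+, and at 183, 224 and 223 TPM in Cre/Cre retinas. The genotypes overlapped, and the single low value was that of Cre/Cre replicate 1, the library with the high Rn45s share. The means were 215 ± 5.05, 223 ± 8.26 and 209.8 ± 23.5 TPM (SD, n = 3). The log2 fold change of Cre/Cre against +/+ was -0.04 (SE 0.08, limma adjusted p = 0.973) and turned to 0.06 without Cre/Cre replicate 1. The deposited coverage of *Ctbp2* was 6.07% to 6.38% of what its FPKM and the depth of the library give. Why was not tested, and its level relative to other genes is less certain for it. The same share was 99.5% to 100% for *Bsn*, *Cacna1f*, *Cabp4*, *Unc13b*, *Slc17a7* and *Elfn1*, 80.5% to 83.9% for *Pclo*, 50.0% to 50.3% for *Cacna2d4* and 30.4% to 31.5% for *Rims2*. The levels of *Pclo*, *Cacna2d4* and *Rims2* relative to other genes, and their ratios to them, are less certain in the same way.

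*Bsn* (chr9:108096022-108190383, minus strand) encodes Bassoon, which anchors the ribbon to the membrane. It was at 41.9, 38.8 and 47.6 TPM in +/+, at 37.4, 40.5 and 42.4 TPM in Cre/+, and at 38.2, 39.0 and 45.3 TPM in Cre/Cre retinas. The genotypes overlapped, and the highest value was a +/+ library. *Pclo* (chr5:14514918-14863459, plus strand) encodes Piccolo, of which photoreceptors use a shortened form at the ribbon. It was at 65.0, 58.8 and 64.5 TPM in +/+, at 66.5, 63.9 and 74.0 TPM in Cre/+, and at 64.6, 62.6 and 75.3 TPM in Cre/Cre retinas. The genotypes overlapped, and the 2 highest libraries, Cre/+ replicate 3 and Cre/Cre replicate 3, are among the 3 low in Xist. The log2 fold change of Cre/Cre against +/+ was 0.10 (SE 0.09, limma adjusted p = 0.891), and with Xist as a covariate it was -0.0068. The ratio of *Pclo* to *Bsn* was 1.47 ± 0.104 in +/+, 1.70 ± 0.108 in Cre/+ and 1.65 ± 0.0441 in Cre/Cre retinas (SD, n = 3), a difference that was not tested.

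Calcium entry at the ribbon depends on *Cacna1f*, *Cacna2d4* and *Cabp4*. *Cacna1f* (chrX:7607103-7635196, plus strand) encodes the pore of Cav1.4, the L-type channel of the photoreceptor terminal. It was at 289.7, 272 and 297 TPM in +/+, at 274, 280.0 and 287 TPM in Cre/+, and at 265, 273 and 307 TPM in Cre/Cre retinas. The genotypes overlapped, and both the lowest and the highest of the 9 values were Cre/Cre libraries. Although the gene is X-linked, the 3 libraries low in Xist (287, 265 and 307 TPM) overlapped the other 6 (272 to 297 TPM). Its log2 fold change was -0.03 (SE 0.08) in Cre/+ and -0.02 (SE 0.08) in Cre/Cre against +/+ (limma adjusted p = 0.912 and 0.982).

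*Cacna2d4* (chr6:119236524-119352407, plus strand) encodes the auxiliary subunit that carries Cav1.4 to the terminal. It was at 329, 303 and 336 TPM in +/+, at 321, 319.8 and 318 TPM in Cre/+, and at 278, 302 and 329 TPM in Cre/Cre retinas. The Cre/+ values lay inside the +/+ range, and the Cre/Cre values reached below it in 2 libraries. Its ratio to *Cacna1f* stayed between 1.05 and 1.17 in the 9 libraries, with means of 1.13 ± 0.0114 in +/+, 1.14 ± 0.0300 in Cre/+ and 1.08 ± 0.0269 in Cre/Cre retinas (SD, n = 3).

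*Cabp4* (chr19:4135423-4139609, minus strand) encodes a calcium-binding protein that shifts the opening of Cav1.4 towards the dark potential of the photoreceptor. It was at 445, 471 and 438 TPM in +/+, at 425, 443 and 431 TPM in Cre/+, and at 398, 393 and 434 TPM in Cre/Cre retinas. Every Cre/Cre library was below every +/+ library, by the narrow gap from 434 to 438 TPM, while Cre/+ overlapped both. The Cre/Cre mean was 90.4% of the +/+ mean, with a log2 fold change of -0.15 (SE 0.07, 95% interval -0.2951 to 0.0030, unadjusted p = 0.0543, limma adjusted p = 0.729). It kept this sign without each library in turn, from -0.19 to -0.11. The rod marker sum was low in Cre/Cre replicate 1. Cre/Cre replicate 2, the library lowest in *Cabp4*, had the highest rod marker sum of its genotype (44340 TPM). The part of rod content in the values of *Cabp4* was not tested.

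Docking and priming of vesicles were represented by *Rims2* and *Unc13b*. *Rims2* (chr15:39198286-39684372, plus strand) encodes RIM2, which tethers vesicles and calcium channels at the active zone. It was at 161, 135 and 137 TPM in +/+, at 160.4, 160.4 and 178 TPM in Cre/+, and at 132, 149.8 and 178 TPM in Cre/Cre retinas. Cre/+ libraries overlapped the +/+ libraries only through +/+ replicate 1, and Cre/Cre libraries held both the lowest and the highest value. The log2 fold change of Cre/+ against +/+, 0.20 (SE 0.10, 95% interval -0.0158 to 0.42, unadjusted p = 0.0667), was the largest of the 10 genes in size in that contrast, and it was 0.28 without +/+ replicate 1 (limma adjusted p = 0.319). In Cre/Cre against +/+ it was 0.08 (SE 0.10, limma adjusted p = 0.937) and turned to -0.03 without Cre/Cre replicate 3. *Unc13b* (chr4:43058953-43264873, plus strand) encodes Munc13-2, a protein of photoreceptor terminals from the Munc13 family of priming factors. It was at 207, 188 and 199 TPM in +/+, at 201, 195 and 209 TPM in Cre/+, and at 190.1, 202 and 220.2 TPM in Cre/Cre retinas. The genotypes overlapped, with log2 fold changes of 0.03 (SE 0.08) and 0.04 (SE 0.08) against +/+ (limma adjusted p = 0.922 and 0.967).

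*Slc17a7* (chr7:45163921-45176139, plus strand) encodes VGLUT1, the transporter that fills photoreceptor and bipolar vesicles with glutamate. The 250 bases ahead of its start, chr7:45163671-45163920 of GRCm38.p6 in RefSeq, are shown because it was by far the most abundant of the 10 genes. They overlap no annotated exon, have a GC content of 61.2% against a median of 52.4% over all windows, and hold neither motif, so no letter is in capitals.
Slc17a7 promoter: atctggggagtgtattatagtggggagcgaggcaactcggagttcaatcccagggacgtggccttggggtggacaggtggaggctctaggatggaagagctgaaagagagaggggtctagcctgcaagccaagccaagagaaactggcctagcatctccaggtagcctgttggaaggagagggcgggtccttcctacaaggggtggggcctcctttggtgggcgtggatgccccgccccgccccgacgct

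*Slc17a7* was at 1458, 1477 and 1495 TPM in +/+, at 1441, 1412 and 1396 TPM in Cre/+, and at 1306, 1436 and 1335 TPM in Cre/Cre retinas. Every Cre/+ and every Cre/Cre library was below every +/+ library, and the knock-in genotypes overlapped each other. The Cre/+ mean was 95.9% and the Cre/Cre mean 92.0% of the +/+ mean. The log2 fold changes were -0.06 (SE 0.07, 95% interval -0.20 to 0.08, limma adjusted p = 0.741) and -0.12 (SE 0.07, 95% interval -0.26 to 0.02, limma adjusted p = 0.777). Without Cre/Cre replicate 1 the latter was -0.09, and with Xist as a covariate the values were -0.036 in Cre/+ and -0.0701 in Cre/Cre. With 3 libraries against 3, an exact permutation test cannot go below p = 0.1, the value that *Slc17a7* reached in both contrasts (two-sided, on TPM) and *Cabp4* in Cre/Cre against +/+.

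*Elfn1* (chr5:139907943-139974724, plus strand) encodes a membrane protein through which rods contact the receptor mGluR6 of ON bipolar cells. It was at 74.9, 72.6 and 81.7 TPM in +/+, at 71.5, 74.8 and 75.3 TPM in Cre/+, and at 78.2, 60.5 and 80.0 TPM in Cre/Cre retinas. The genotypes overlapped, and the single low value was that of Cre/Cre replicate 2, the library with the high lens sum. The log2 fold change of Cre/Cre against +/+ was -0.08 (SE 0.10, limma adjusted p = 0.936), and it was 0.05 without that library. With Xist as a covariate it was -0.2174, and the value in Cre/+ went from -0.0476 to -0.1161.

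Among the 10 genes, *Slc17a7* was the only one whose Cre/+ libraries all lay below the +/+ libraries, where 10.3% of all genes did, and 0 of 10 lay above, where 11.9% did. In Cre/Cre against +/+ retinas 2 of 10 lay below, *Slc17a7* and *Cabp4*, where 8.05% of all genes did, and 0 of 10 above, where 2.7% did. Between Cre/Cre and Cre/+ retinas 0 of 10 lay below or above, with 7.23% and 4.76% of all genes. With 10 genes, each of these counts is within 2 genes of what the share of all genes would give.

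The intervals of the fit show how large a change these libraries leave room for in a model with genotype as its only term. Each interval is for 1 gene, and sex, which was partly confounded with genotype, is not in that model. Over the 10 genes, the 95% intervals of the fold change reached from 0.819 (*Bsn*) to 1.34 (*Rims2*) in Cre/+ against +/+, from 0.815 (*Cabp4*) to 1.23 (*Rims2*) in Cre/Cre against +/+, and from 0.789 (*Rims2*) to 1.17 (*Bsn*) in Cre/Cre against Cre/+ retinas. All of these lie well inside the 2-fold limit that the study set for a changed gene. The log2 fold change was below 0 for 6 of 10 genes in Cre/+ and for 7 of 10 in Cre/Cre against +/+, where 49.6% and 57.7% of all genes tested were below 0. Its median over the 10 genes was -0.02 in Cre/+ and -0.05 in Cre/Cre, beside 0.0014 and -0.02 over all genes. Without Cre/Cre replicate 1 the Cre/Cre medians were -0.0001 for the 10 genes and 0.02 for all genes. Between Cre/Cre and Cre/+ retinas 7 of 10 were below 0, with 59.2% of all genes, and the medians were -0.04 and -0.03. Adding up the TPM of the 10 genes gave 3276 ± 44.4 in +/+, 3222 ± 6.14 in Cre/+ and 3100.0 ± 151 in Cre/Cre retinas (SD, n = 3). *Slc17a7* made up 45.1%, 43.9% and 43.9% of these sums, and without it they were 1799 ± 44.2, 1806 ± 20.4 and 1741 ± 136 TPM.

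**Figure D2:**
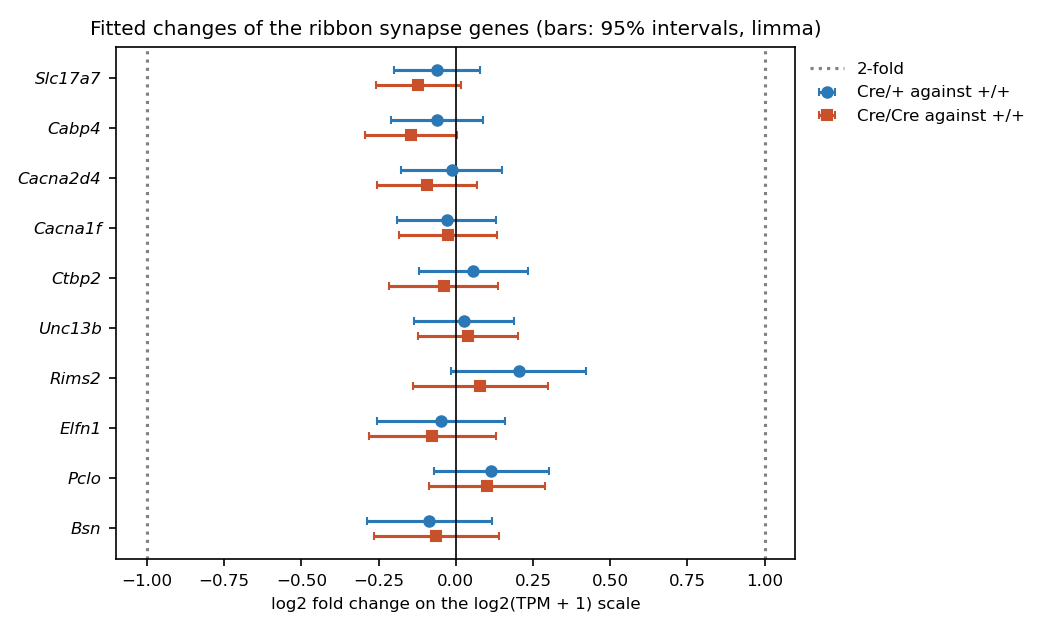
Fitted log2 fold change of each ribbon synapse gene on the log2(TPM + 1) scale (horizontal axis), for Cre/+ (circles) and Cre/Cre (squares) against +/+, with 95% intervals from limma as bars and a 2-fold change as dotted lines. All intervals cross 0 and stay between fold changes of 0.815 and 1.34.

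The libraries of a genotype also differed from each other. Cre/Cre replicate 1 was the lowest of its genotype for 7 of the 10 genes and the lowest of all 9 libraries for 5 (*Ctbp2*, *Cacna1f*, *Cacna2d4*, *Rims2* and *Slc17a7*). Cre/Cre replicate 3 was the highest of its genotype for 8 and the highest of all 9 for 4 (*Pclo*, *Cacna1f*, *Rims2* and *Unc13b*). Averaged over the 10 genes, the log2 deviation from each gene's mean over the 9 libraries was -0.11, -0.06 and 0.09 in the Cre/Cre libraries. It was between -0.05 and 0.05 in the other 6. The SD was larger in Cre/Cre than in either other genotype for 9 of the 10 genes, the exception being *Bsn*. Shares of all genes were not worked out for these counts of lowest values, highest values and SD. Cre/Cre replicate 1 is also the library whose median gene stood at 0.917 of its geometric mean. No trait particular to the 10 genes can therefore be read from these counts. The genes also moved together across libraries to different degrees. The Pearson correlation of each with the mean of the other members, over 9 libraries that share their depth and scaling, was 0.916 for *Cacna1f*, 0.871 for *Cacna2d4* and 0.759 for *Unc13b*, between 0.281 and 0.671 for the next 6, and 0.017 for *Slc17a7*. The 5 other genes chosen as most alike to the mean of the members were *Zbtb38* (r = 0.97), *Bace1* (r = 0.967), *Alk* (r = 0.965), *Ryr2* (r = 0.96) and *Ppip5k1* (r = 0.955), as a description over the same 9 libraries.

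**Figure D3:**
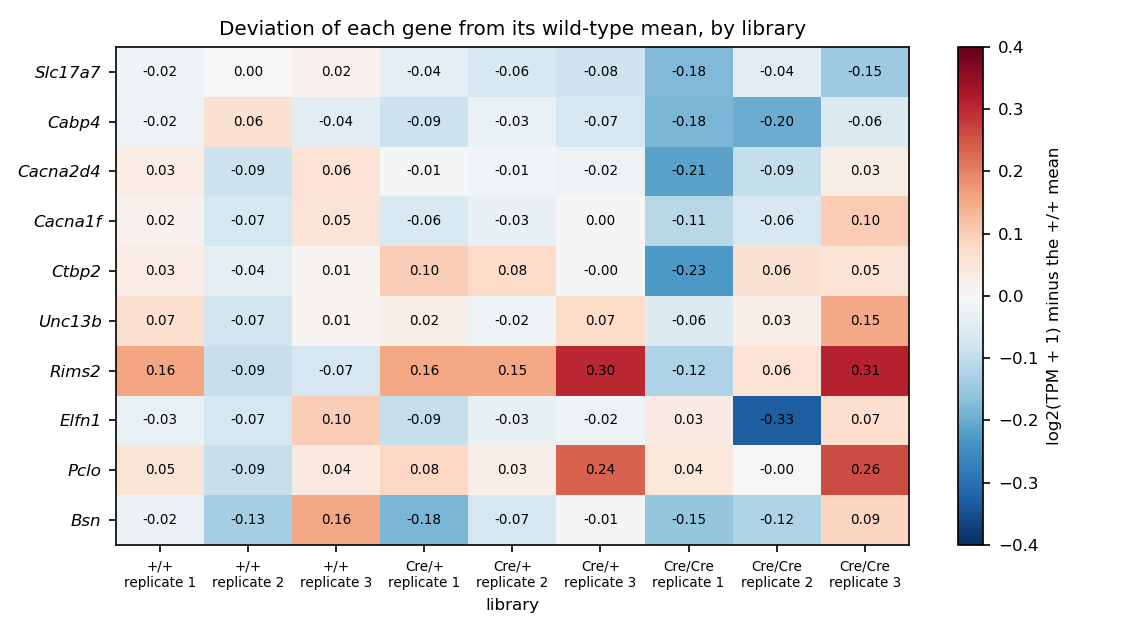
Deviation of each ribbon synapse gene (rows) from its +/+ mean in each of the 9 libraries (columns), in units of log2(TPM + 1), with blue for lower and red for higher values. Cre/Cre replicate 1 is mostly blue and Cre/Cre replicate 3 mostly red, whereas *Slc17a7* and *Cabp4* are below their +/+ mean in all 6 knock-in libraries.

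By the deposited TPM, each of the 8 genes compared with close relatives was the most abundant of the family members examined in all 9 libraries. The ratios of *Ctbp2*, *Rims2* and *Cacna2d4* rest on genes whose coverage was below what their FPKM gives, and they are less certain for it. Coverage was not examined in this way for the relatives, so the other ratios may share this limit. *Slc17a7* (VGLUT1) exceeded *Slc17a6*, the VGLUT2 gene of ganglion cells, by 20.9-fold to 30.4-fold and *Slc17a8*, the VGLUT3 gene of some amacrine cells, by 57.1-fold to 79.3-fold. *Cacna1f* exceeded *Cacna1d* (Cav1.3) by 10.5-fold to 11.7-fold and *Cacna1c* (Cav1.2) by 47.1-fold to 61.0-fold. *Cacna2d4* was 4.36-fold to 9.46-fold above the genes of the other alpha2delta subunits, *Cacna2d1*, *Cacna2d2* and *Cacna2d3*. The margins were narrower for the active zone. *Rims2* exceeded *Rims1* by 2.50-fold to 3.15-fold, *Unc13b* exceeded *Unc13a* by 2.11-fold to 3.08-fold, and *Cabp4* exceeded *Cabp1* by 1.82-fold to 2.25-fold and *Cabp5*, a gene of bipolar cells, by 2.13-fold to 3.07-fold. *Elfn1* exceeded *Elfn2* by 1.34-fold to 1.96-fold and *Ctbp2* exceeded *Ctbp1* by 1.31-fold to 1.62-fold. These are ratios of TPM in the whole retina, to which every cell type contributes.

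**Figure D4:**
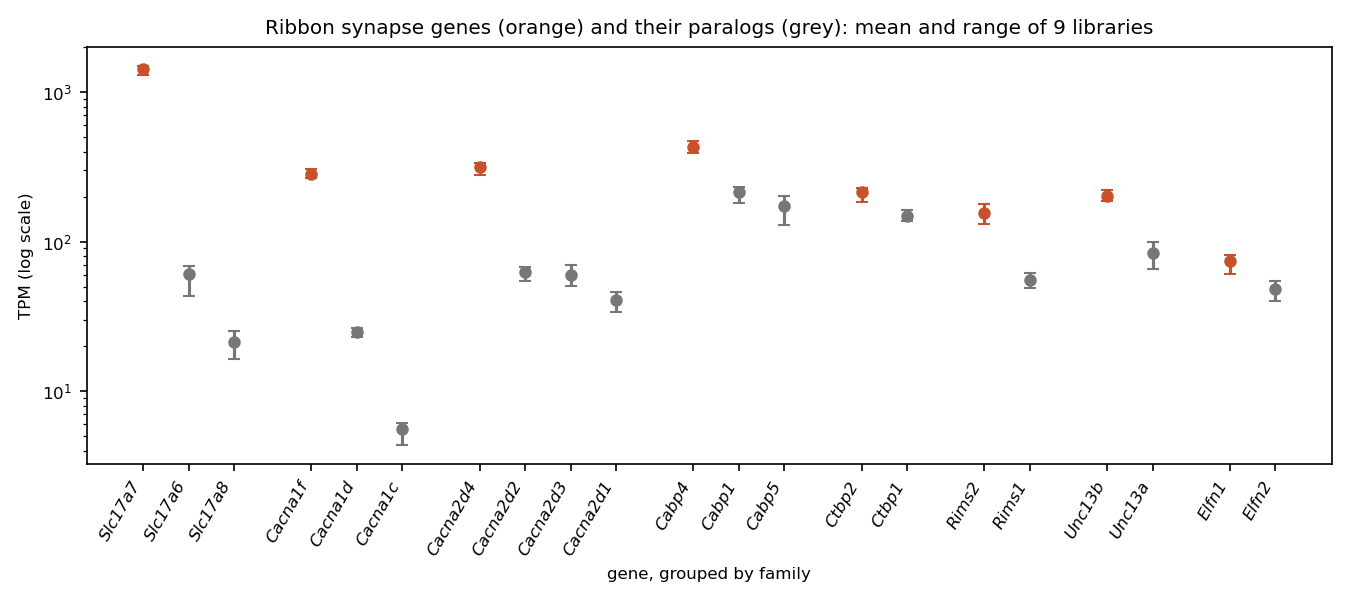
Mean TPM over 9 libraries (log scale, bars from the lowest to the highest library) of the ribbon synapse genes compared with close relatives (orange) and of those relatives (grey), grouped by family. The orange point is the highest of the family members examined in every case, from 1417 TPM for *Slc17a7* against 60.4 TPM for *Slc17a6* to 74.4 TPM for *Elfn1* against 48.0 TPM for *Elfn2*.

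Beyond the 10 genes, 49 other genes of the synapse in 5 lists were examined, and all 49 were tested. Of these, 0 were called in any contrast at an adjusted p of at most 0.05 (limma). At an unadjusted p under 0.05, 3 of 49 were lower and 1 was higher in Cre/+ against +/+, where 5.82% and 4.9% of all genes were. In Cre/Cre against +/+, 5 of 49 were lower and 0 higher, where 5.39% and 1.58% of all genes were. Between Cre/Cre and Cre/+, 2 of 49 were lower and 0 higher in Cre/Cre, where 4.2% and 2.38% were. The median log2 fold change of the 49 genes was 0.0069 in Cre/+ and -0.07 in Cre/Cre against +/+. Over all genes these medians were 0.0014 and -0.02. Between Cre/Cre and Cre/+ the medians were -0.11 for the 49 and -0.03 for all genes. The log2 fold change was below 0 for 23, 38 and 40 of the 49 genes in these 3 contrasts. Of all genes, 49.6%, 57.7% and 59.2% were below 0. Whether the 49 genes as a set differ from all genes was not tested. All Cre/+ libraries lay below the +/+ libraries for 9 of 49 genes and above for 7, where 10.3% and 11.9% of all genes did. For Cre/Cre the counts were 4 below and 0 above, where 8.05% and 2.7% of all genes did. Between Cre/Cre and Cre/+, 5 lay below and 1 above, where 7.23% and 4.76% of all genes did.

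In the ribbon and active zone list, 1 of 10 genes passed the unadjusted limit in Cre/+ and 2 of 10 in Cre/Cre against +/+, all with lower values. Of all genes, 5.82% and 5.39% passed it with lower values. *Ppfia3*, whose product liprin-alpha-3 organises active zones, was at 55.2, 53.4 and 59.7 TPM in +/+, at 47.9, 47.1 and 49.0 TPM in Cre/+, and at 48.1, 47.7 and 49.9 TPM in Cre/Cre retinas. All 6 knock-in libraries were below the 3 +/+ libraries, with log2 fold changes of -0.22 and -0.20 (SE 0.07, limma adjusted p = 0.39 and 0.647). *Rab3a*, the vesicle GTPase bound by RIM proteins, was at 451 ± 33.2, 416 ± 12.3 and 389.9 ± 33.3 TPM in +/+, Cre/+ and Cre/Cre retinas (SD, n = 3), and Cre/Cre overlapped +/+ (log2 fold change -0.21, limma adjusted p = 0.655). *Unc119*, a ribbon-associated lipid-binding protein and the most abundant gene of the list, was at 2745 ± 138, 2506 ± 41.1 and 2601 ± 138 TPM.

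Among 11 genes of the calcium channel, 1 was lower and 1 higher at the unadjusted limit in Cre/+ against +/+. Of all genes, 5.82% and 4.9% were. In Cre/Cre against +/+, 1 was lower and 0 higher, where 5.39% and 1.58% of all genes were. These were *Cacnb3*, *Cacnb2* and *Cacnb1*, all genes of beta subunits. *Cacnb3* was at 44.0, 47.5 and 46.5 TPM in +/+, at 40.1, 37.2 and 39.5 TPM in Cre/+, and at 43.3, 42.8 and 41.3 TPM in Cre/Cre retinas. Both knock-in genotypes lay below +/+, with a log2 fold change of -0.24 (SE 0.08, limma adjusted p = 0.377) in Cre/+ and -0.11 in Cre/Cre. *Cacnb1* had log2 fold changes of -0.15 in Cre/+ and -0.27 (SE 0.09, limma adjusted p = 0.606) in Cre/Cre, at 26.6 ± 0.785, 23.8 ± 0.754 and 21.9 ± 2.03 TPM in +/+, Cre/+ and Cre/Cre retinas (SD, n = 3). *Cacnb2*, the beta subunit of the photoreceptor channel, had the opposite sign, at 129 ± 4.11, 148 ± 6.51 and 139.5 ± 19.0 TPM, with a log2 fold change of 0.20 (SE 0.09, limma adjusted p = 0.46) in Cre/+. *Cabp1*, the most abundant of the list, was at 228 ± 3.97, 207 ± 17.6 and 205 ± 20.8 TPM.

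In the list of 11 vesicle fusion genes, *Syp*, which encodes the vesicle protein synaptophysin, was at 1521, 1550.5 and 1437 TPM in +/+, at 1311, 1335 and 1332 TPM in Cre/+, and at 1214, 1409 and 1450.4 TPM in Cre/Cre retinas. The Cre/+ libraries lay below the +/+ libraries, while the Cre/Cre libraries reached into their range (log2 fold change -0.18 with limma adjusted p = 0.424, and -0.15 with limma adjusted p = 0.751). The SNARE gene *Snap25*, the most abundant, was at 2051 ± 95.8, 2119 ± 30.9 and 1931 ± 199 TPM. Of 7 genes of glutamate handling 0 passed the unadjusted limit in either contrast with +/+. *Glul*, the glutamine synthetase of Müller glia and the most abundant of them, was at 3118 ± 203, 3251 ± 137 and 2870 ± 147 TPM, and it was the 1 gene of the list past that limit in Cre/Cre against Cre/+ (log2 fold change -0.18, limma adjusted p = 0.74), with every Cre/Cre library below every Cre/+ library.

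The trans-synaptic list holds partners on both sides of the cleft, and 2 of its 10 genes passed the unadjusted limit, both with lower values in Cre/Cre against +/+. In that contrast 5.39% of all genes passed it with lower values. *Grm6*, the mGluR6 receptor to which ELFN1 binds, was at 140.4, 136 and 121 TPM in +/+, at 123, 131 and 131 TPM in Cre/+, and at 96.9, 115 and 128 TPM in Cre/Cre retinas. Cre/Cre replicate 1 was the lowest, and the Cre/Cre and +/+ libraries overlapped (log2 fold change -0.23, limma adjusted p = 0.67). Without Cre/Cre replicate 1 it was -0.12. The bipolar markers, of which *Grm6* is 1 of 5, summed to 679 TPM in that library and to 819.9 to 915 TPM in the other 8. *Nyx*, which encodes nyctalopin on the ON bipolar dendrite and lies on the X chromosome, was at 18.0 ± 0.975, 17.2 ± 1.14 and 14.9 ± 2.38 TPM (log2 fold change in Cre/Cre -0.26, limma adjusted p = 0.695), and with Xist as a covariate the log2 fold change in Cre/Cre was -0.0938. *Dlg4*, the scaffold PSD-95 found in photoreceptor terminals, was the most abundant of the list at 658 ± 33.7, 686 ± 14.8 and 624 ± 64.1 TPM.

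**Figure D5:**
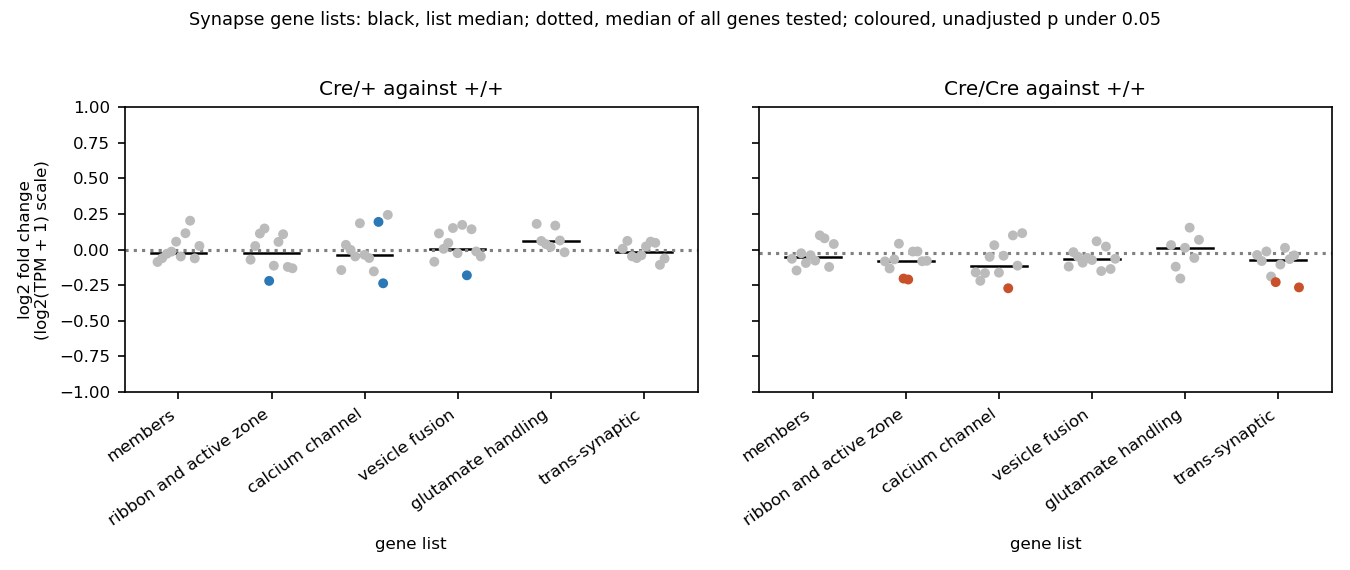
Fitted log2 fold change on the log2(TPM + 1) scale (vertical axes) of the 10 ribbon synapse genes ("members") and of the 49 other synapse genes in 5 lists, for Cre/+ and Cre/Cre against +/+. Black lines mark each list's median and the dotted line the median of all genes tested, and the coloured points are the 4 and 5 genes at an unadjusted p under 0.05, none of them among the 10.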

How the data were processed

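Bulk RNA-Seq tables of 9 retinal libraries were used, grouped by the genotype in each sample label. Strand-specific libraries of poly(A) RNA were read from both ends at 150 bases. After trimming (Trimmomatic), the authors ran HISAT2 on mm10 and StringTie for abundances; versions and annotation are not given in the sources used here. For each library the authors deposited TPM and FPKM, both normalised for length and depth, and coverage, the mean read depth over a gene's bases. Counts were absent from these tables, so the depth (27.0 to 31.0 × 10⁶ reads) came from the ratio of coverage to FPKM, and the spread between libraries, not counting error, set the precision.

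TPM were summed by gene name. Genes averaging 1 TPM or more were tested on log2(TPM + 1), a scale that understates changes of low genes, with limma 3.58.1 (trend and robust prior) in R 4.3.3, with genotype as the only term, 6 residual degrees of freedom and Benjamini-Hochberg adjustment over all 15198 genes. The fit was tested on simulated data. The members and lists were chosen with earlier results of these data known. Named genes are the 10 members, *Rbpms*, up to 4 genes of each list at an unadjusted p under 0.05 (or its smallest p) with the list's most abundant gene, and the 5 genes most correlated with the members' mean. A gene that this rule named in 1 list is not reported here. Alternatives were a pseudocount of 0.1, no filter, a replicate block, median-ratio scaling, FPKM, Xist as a covariate, only the genotypes compared, no robust prior, and each library left out. Motifs were counted in RefSeq windows of 250 bases, and transcripts came from GENCODE, both on GRCm38, the assembly of mm10. Plots used Python 3.11.15 with matplotlib 3.10.9. The authors' DESeq2 comparison was not repeated.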

Additional observations from a re-analysis of the deposited data

How the results depend on the processing

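Under every alternative, each library left out included, 0 of the 10 ribbon synapse genes were called in each contrast. The test of any genotype difference, which cannot be run with only 2 genotypes, also called 0 under each of the other alternatives. In the 2 contrasts with +/+, the smallest adjusted p of any of the 10 genes was 0.203 (limma, *Rims2* in Cre/+ against +/+ with only the genotypes compared). For Cre/Cre against Cre/+ and the test of any difference, the alternatives gave counts only. The median log2 fold change of the 10 genes with libraries left out ranged from -0.0426 to 0.0085 in Cre/+ against +/+, from -0.0986 to -0.0001 in Cre/Cre against +/+, and from -0.0979 to -0.0096 in Cre/Cre against Cre/+. With the replicate block, which these balanced genotypes leave without effect on the fold changes, the medians were -0.021, -0.0512 and -0.0445 and 0 genes were called. Libraries with the same number in different genotypes had deviations that correlated between -0.116 and 0.128. For libraries with different numbers the range was -0.194 to 0.261. Such values cannot tell whether the numbers pair the samples, since differences between single libraries also enter them. At an unadjusted p under 0.05 the count of the 10 genes became 1 in Cre/+ against +/+ under median-ratio scaling, with only the genotypes compared, and without +/+ replicate 1, Cre/Cre replicate 1 or Cre/Cre replicate 3; 1 in Cre/Cre against +/+ without the filter, without the robust prior, and without Cre/Cre replicate 2 or 3; and 1 in Cre/Cre against Cre/+ without Cre/Cre replicate 3. Single values near 0 changed sign, and the cause was not tested. With Xist as a covariate, *Nyx* in Cre/+ was at 0.021, and in Cre/Cre *Ctbp2* was at 0.046 and *Pclo* at -0.0068. Median-ratio scaling put *Cacna1f* in Cre/Cre at 0.0041, and FPKM put *Unc13b* in Cre/Cre at -0.0116. With libraries left out, the values in Cre/+ against +/+ ranged from -0.0569 to 0.0160 for *Cacna2d4*, from -0.0106 to 0.0590 for *Unc13b*, from -0.0832 to 0.0010 for *Elfn1* and from -0.1032 to 0.0054 for *Grm6*. In Cre/Cre against +/+ they ranged from -0.0888 to 0.0575 for *Ctbp2*, from -0.1390 to 0.0142 for *Bsn*, from -0.0882 to 0.0186 for *Cacna1f*, from -0.0332 to 0.1819 for *Rims2*, from -0.0160 to 0.0894 for *Unc13b* and from -0.1480 to 0.0506 for *Elfn1*. Over all genes, the number called moved from 1 to between 0 (FPKM) and 5 in Cre/+ against +/+, from 1 to at most 5 in Cre/Cre against +/+, and from 2 to between 1 and 8 in Cre/Cre against Cre/+. Where a left-out library leaves 2 in a genotype, the spread is shared with the other genotypes.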
